A study of Drosophila melanogaster with 36 samples.

Results

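Lines D1 and D2 of Drosophila melanogaster are the high and the low line of reselected pair D, 1 of 4 pairs that were selected in opposite directions for wing shape from crosses of the founder lines. They were chosen by their titles, and their 6 arrays (3 of D1, 3 of D2) are part of 36 arrays on 12 lines. Wing discs were cut from last-instar larvae about 6.2 h before pupariation, grown at 20 °C, and pooled as 100 discs per tube for RNA. The founder lines H (high) and L (low) came from a wild Massachusetts (MA) sample by 20 generations of divergent selection and were then made isogenic. Hybrids of H and L gave populations A, B, C and D, which were mixed for 34 generations, selected in both directions for 25 and inbred for 10, so D1 and D2 share 1 hybrid population and its founders. The other groups used here are A1, B1 and C1 (high) and A2, B2 and C2 (low), made in the same way, and the high and low selected lines CA of California origin, which entered only the filter and the model's estimate of spread. Each line exists once, so within pair D an effect of selection and alleles fixed by chance during inbreeding cannot be told apart. No label ties the 3 arrays of a line to different cultures, and the p-values rest on the spread between arrays, which may be technical.

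The wing disc is the larval epithelium that becomes the adult wing, hinge and notum. Its pattern is laid down by Hedgehog made in the posterior compartment under engrailed, by Dpp along the compartment border, by Wingless at the wing margin, and by Notch and EGFR signalling, which place the veins. Growth and shape depend on the Fat, Dachsous and Hippo system, on insulin signalling and, near pupariation, on the steroid ecdysone, which starts cuticle deposition and eversion. A line fixed for one allele of a gene carries that allele in all of its flies, so inbred lines can differ in the signal of single genes, either through the amount of RNA or through sequence differences under the array's probes. For a gene measured by 1 probe set these cannot be told apart.

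Values are the deposited array signals, differences are on the log2 scale as high minus low line, and 1 unit is 2-fold. Errors are the standard error (SE) of the linear model over all 36 arrays, with 3 arrays per line. The 6 arrays of D1 and D2 had median signals from 295.55 to 313.4. Those of H had 365.35 to 430.1 and those of L 310.95 to 355.9. In the titles the founder arrays were numbered 2525 to 2530 and the reselected arrays 2467 to 2490. Differences of level between founders and reselected lines therefore cannot be told apart from an effect of that numbering. Founder levels are given as values only. All 9 wing disc markers (vg, nub, ap, rn, dpp, en, hh, tsh and pnr) read 1571 or above on these arrays, and the muscle genes Mlc2 and up 119.2 or below. A pair of arrays stood apart. On D2 replicate 1 the salivary gland glue genes were high, with Sgs3 at 3997 against 53.9 and 55.7 on the other D2 arrays, Sgs7 at 6674 against 123.7 and 227.4, and Sgs8 at 2906 against 213.4 and 183.1. D1 replicate 1 departed from the other D1 arrays at several genes of chromosome 3R, which are given below. Without both of these arrays, 29 of 94 named gene results lost their call and 65 kept it, and the losses are given with the genes or lists concerned.

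Between D1 and D2, 943 of 9385 tested probe sets were called (10%, Benjamini-Hochberg adjusted p below 0.05 in limma), 467 of them higher in D1 (4.98%) and 476 lower (5.07%). At least 2-fold differences were found for 91 of the higher and 101 of the lower ones. The arrays of D1 and D2 did not overlap at 914 of the 943 called probe sets, beside 25.6% of all tested. Among called probe sets this follows in part from the call itself. The other reselected pairs gave 1476 (A), 1189 (B) and 1329 (C) called probe sets. Without D1 replicate 1 and D2 replicate 1, 729 were called in pair D. Most calls of pair D recurred elsewhere: 188 were called with the same sign in all of A, B and C, 243 in exactly 2 of them, 252 in exactly 1, and 76 were called with the opposite sign in at least 1. Another 184 were called in pair D and in no other reselected pair. Missing the threshold in another pair does not show a difference from pair D, so the D difference was also set against the mean of the A, B and C differences in the same model.

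That test called 258 probe sets (2.75%), 146 with a larger and 112 with a smaller value in pair D. The same test gave 523 for pair A, 406 for pair B and 753 for pair C, each against the other 3, and these counts were not tested against each other. Of the 184 probe sets called in pair D and in no other reselected pair, 37 passed it with the same sign (0.394% of those tested) and 147 did not. These 37 are described below as called in pair D alone. A further 38 (0.405%) were called with 1 sign in A, B and C, were not called with that sign in D, and passed the test of the difference. At 55 (0.586%) pair D passed the test and was called against the sign of at least 1 other pair. Without both arrays that stood apart, the counts were 224 for the test, 35 for pair D alone and 33 for A, B and C without D, although only 17 of the 37 and 24 of the 38 were among them. The spread in this test is that between arrays and leaves out that between pairs. With the 4 pair differences as the units, limma called 0 probe sets, and 345 of 9385 had an unadjusted p below 0.05. That is less than the share of 0.05 that this threshold passes where no differences exist.

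**Figure D1:**
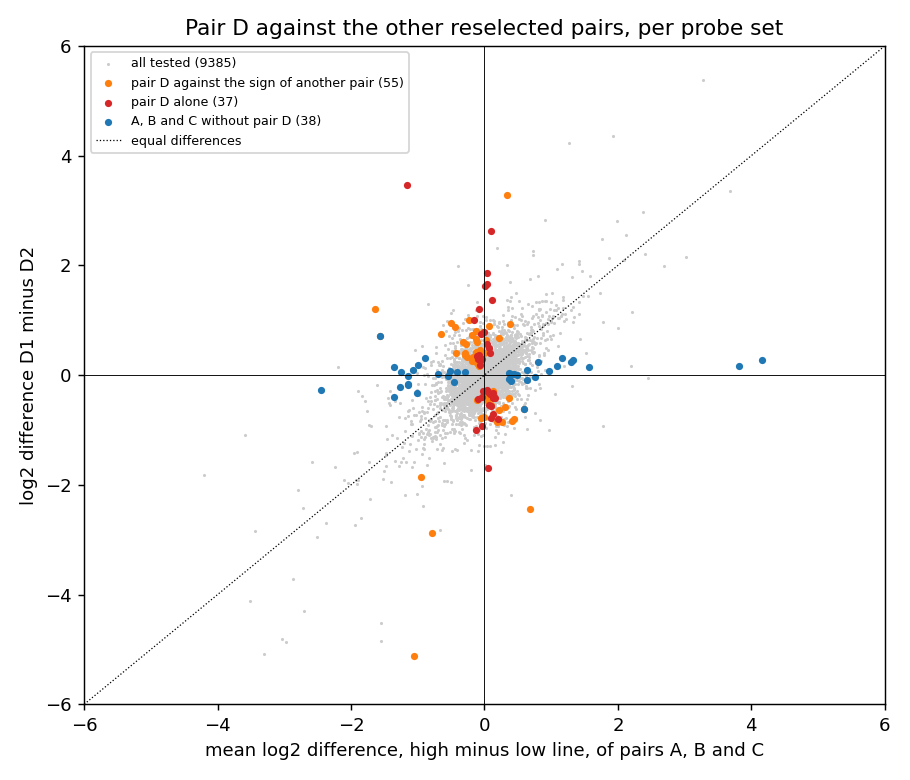
Log2 difference D1 minus D2 (vertical) against the mean of the differences in pairs A, B and C (horizontal) for 9385 tested probe sets; the dotted line marks equal differences. The 37 probe sets of pair D alone lie along the vertical axis, the 38 of A, B and C without D along the horizontal axis, and the 55 that oppose another pair lie mostly in the upper left and lower right. Position relative to the axes follows from how the sets were chosen.

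Among the 8 highest and the 8 lowest D1 minus D2 differences of named genes, these 16 split evenly against the other pairs. For 8 of them, CG32017, Spn47C, sut2, CG12129, CG12589, CG31676, CG8539 and CG10863, the pair D value did not differ from the mean of the other pairs by the test. For the other 8 it did, and these are described here. All 16 remained called in D1 minus D2 without any single one of the 24 reselected arrays, with a largest adjusted p of 0.0346. Without both arrays that stood apart, Spn47C (2.02) and CG34227 (2.26) were not called.

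Ir76a, an ionotropic receptor gene of the chemosensory family, read 1538.9, 2374.5 and 2384.3 in D1 and 47.8, 45.3 and 55.2 in D2. The D2 arrays were thus far under the filter level of 259.72, and D2 minus the mean of the other low lines was -1.39 (adjusted p = 0.0499). Those lines averaged 125.7 to 180.4. The D difference of 5.38 ± 0.49 exceeded the mean of the other pairs by 2.11 ± 0.56 (adjusted p = 0.032). It passed the filter through the high lines, and the sizes of both values rest on low line signals below the filter level. GstE11, a glutathione S-transferase, read 32344, 31668 and 30137 in D1 and 1682, 1444 and 1448 in D2. Its difference of 4.37 ± 0.34 was 2.44 ± 0.39 above the mean of the other pairs (adjusted p = 0.000116), in which A1 (2358) was low and B2 (12010) was high.

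Cyp6g1, a cytochrome P450 that metabolises insecticides, read 1063.9, 1529.1 and 1399.8 in D1 and 243.4, 277.3 and 36.4 in D2, without overlap. It was called with the same sign in pairs A (1.74) and B (1.72) and the other way in pair C (-2.44). The difference from the mean of the other pairs was 2.95 ± 0.64 (adjusted p = 0.00622), and it was not called without D2 replicate 3 (2.00, adjusted p = 0.0577). CG8701 read 1360.3, 1957 and 1650.5 in D1 against 114.6, 405.9 and 263.2 in D2, 1.92 ± 0.49 above the mean of the other pairs (adjusted p = 0.0242), although pair C (2.46) was close to pair D (2.83). CG34227 varied widely within D1, at 5220.5, 3933.1 and 1471.1, against 504.1, 464.6 and 545 in D2. Its excess of 2.54 ± 0.72 over the other pairs (adjusted p = 0.0484) lost its call without any 1 of 17 arrays.

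Lower in D1 were CG1894, Rnf11 and Ugt302K1. CG1894 read 543.3, 555.6 and 660.5 in D1 and 17512, 16026 and 16672 in D2, and D2 was the highest of the 8 reselected lines. Its difference was -4.84 ± 0.44, and the departure from the mean of the other pairs -3.30 ± 0.51 (adjusted p = 6.42e-05), with 0.69, -1.33 and -3.995 in A, B and C. Rnf11, a RING finger gene, read 5772, 5498 and 6000 in D2, but 1678.8, 580.9 and 540.9 in D1, so that D1 replicate 1 stood between D2 and the other D1 arrays. D1 minus the mean of the other high lines was -2.22 (adjusted p = 2.36e-06), of which B1 averaged 1266 and A1 and C1 6389 and 6925. A second probe set of Rnf11 gave -1.07, and its departure from the other pairs (-0.97, adjusted p = 0.24) was not called. Ugt302K1 is described below with its neighbours on chromosome 3R.

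Among the genes called in pair D alone, 20 probe sets were higher and 17 lower in D1. Of the 37, 30 had 1 gene symbol and 7 none. Next, D1 was set against the mean of A1, B1 and C1, and D2 against the mean of A2, B2 and C2. D1 only was called apart for 19, D2 only for 7, neither by itself for 11 and both for none. Over all tested probe sets D1 was called apart at 6.03% and D2 at 2.88%. The departure from the other pairs is the first of these differences minus the second. Such calls therefore follow in part from how the set was chosen. The founder difference H minus L had the same sign as D1 minus D2 at 34 of the 37 and was called with that sign at 21, with the opposite sign at 0, beside 22.4% of all tested probe sets called between H and L. Since founders and reselected lines share alleles, this is a description and no independent evidence. The 12 highest and the 12 lowest departures from the other pairs among named genes of this set, 24 in all, are described here. Of these, 7 kept that call without any single one of the 24 reselected arrays (pippin, uzip, CG31121, ics, lncRNA:CR43242, dmGlut and esc), and the other 17 lost it without at least 1 array, up to 19. Without both arrays that stood apart, 12 of the 24 lost it, namely CG34227, CtsK2, Tsf1, CG3589, CG3253, dsx, lncRNA:CR43242, clt, mTTF, Gos28, ND-B17 and pug.

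The gene ics encodes icarus, the fly Rsu-1, a leucine-rich repeat protein that binds the integrin-linked PINCH protein and is needed for the wing layers to adhere. It read 10724, 11119 and 9879.5 in D1 and 6025, 6180 and 6084 in D2. The 6 other reselected lines averaged 6165 to 6653, whereas H averaged 9061 and L 6196. Of the reselected lines D1 was nearest to H in signal. Its difference of 0.79 ± 0.08 (adjusted p = 2.63e-09) compared with -0.05, 0.03 and 0.02 in pairs A, B and C, and the departure was 0.79 ± 0.09 (adjusted p = 3.38e-07). CG31121 followed the same order, with 6559, 7716 and 9338 in D1 and 4782, 4678 and 4409 in D2 (0.75 ± 0.14). H averaged 7179 and L 3763, and the other reselected lines lay between 4410 and 5939.

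At pippin, uzip, Tsf1, CtsK2, corolla and CG8860 D2 was the line that stood apart. pippin, a sugar transporter, read 404, 380.5 and 453.8 in D2 and 1412.6, 1345.2 and 1147.2 in D1. All 6 lines of pairs A, B and C averaged 1045 to 1324 and L 631.6, and D2 minus the mean of the other low lines was -1.47 (adjusted p = 1.15e-06). The cell adhesion gene uzip, which acts in axon guidance, read 1731.5, 1211.2 and 1507.6 in D2 and 3623, 3242 and 3263 in D1, a difference of 1.20 ± 0.14. L averaged 1633 and the other low lines 2850 to 3677, and D2 minus the mean of the latter was -1.16 (adjusted p = 2.67e-08). A1, at 2173, was the next lowest reselected line. The transferrin gene Tsf1 (1.00 ± 0.28) and the cathepsin gene CtsK2 (1.62 ± 0.37) were also lower in D2 than in the other low lines. Tsf1 lost the call against the other pairs without any 1 of 15 arrays and CtsK2 without any 1 of 8, and CtsK2 was under the filter level on every D2 array. The synaptonemal complex gene corolla (1.38 ± 0.30) and the microRNA-processing ribonuclease gene drosha (0.50 ± 0.08) rose as well. Leaving out 1 array ended the call against the other pairs for drosha (D1 replicate 3, adjusted p = 0.0673), and any 1 of 13 arrays did so for corolla. CG3589, CG3907 and CG8860 were higher in D1 by 0.35, 0.35 and 0.29, and lost the departure without any 1 of 11, 5 and 8 arrays. At drosha, CG3589 and CG3907 neither D1 nor D2 by itself was called apart from its counterparts.

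Lower in D1 alone were a Polycomb gene and a transporter. The gene esc encodes a subunit of Polycomb repressive complex 2, which methylates histone H3. It read 2343, 2120 and 1938 in D1 and 3189, 3263 and 2944 in D2, with no overlap. The other 6 reselected lines averaged 3285 to 3931, H averaged 2020 and L 3507. In signal, D1 was the reselected line nearest to H. Its difference was -0.56 ± 0.09 and its departure -0.66 ± 0.11 (adjusted p = 0.000116). For dmGlut, a glutamate transporter, D1 read 2728, 2563 and 2339 and D2 4118, 3927 and 4488 (-0.72 ± 0.12), and D1 minus the mean of the other high lines was -0.73 (adjusted p = 3.85e-06), with H at 2694. The long noncoding RNA lncRNA:CR43242 gave -0.77 ± 0.17 and, on a second probe set with overlapping arrays, -0.48, which was not called. The departure of that second probe set (-0.43, adjusted p = 0.46) was not called either.

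**Figure D2:**
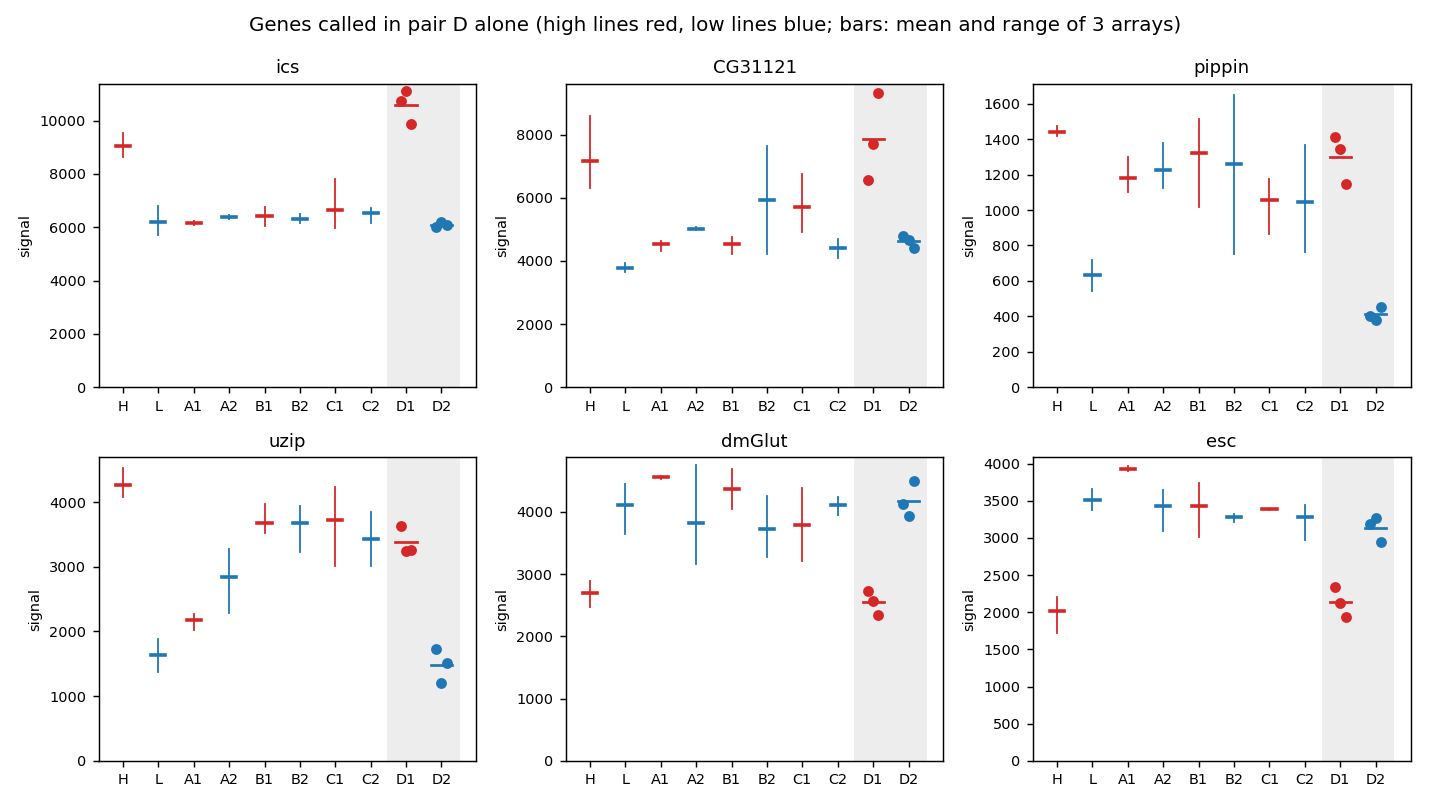
Signal (linear axis) of 6 genes called in pair D alone in the founders H and L and the 8 reselected lines. Dots are the single arrays of D1 and D2 and short bars their means; for the other lines the bar is the mean and the vertical line the range of 3 arrays. D1 stands at or beyond the level of H for ics, CG31121, dmGlut and esc, and D2 at or below the level of L for pippin and uzip. Founder arrays were numbered apart from the reselected arrays in the titles, so their levels are shown as values only.

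The sex determination factor gene dsx read 2493, 2384 and 1812 in D1 and 5048, 4666 and 3680 in D2 on 1 probe set (-1.003 ± 0.21). A second dsx probe set gave 0.26, in the other direction, and the first lost its departure from the other pairs without any 1 of 16 arrays. For ND-B17, a subunit of respiratory complex I, the probe sets had the same sign but gave -0.43 and -0.05, the latter not called. CG3253 gave -1.69 ± 0.34, with 2 of its D1 arrays under the filter level. The piRNA pathway gene Gasz gave -0.55 ± 0.12 and clt -0.43 ± 0.13. Leaving out D1 replicate 3 ended the departure of CG3253 (adjusted p = 0.0635), any 1 of 2 arrays that of Gasz and any 1 of 3 that of clt. The remaining members were the mitochondrial transcription terminator mTTF (-0.33), the Golgi SNARE Gos28 (-0.30), the folate enzyme pug (-0.28) and CG7006 (-0.41). All of them lost the departure without any 1 of 8 to 19 arrays.

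Where A, B and C agreed and pair D had no such difference, 1 of the D lines usually had the level of the opposite direction. Of 256 probe sets called with 1 sign in A, B and C, 188 were called with that sign in D, 66 were not called in D and 2 were called against it. The 38 that passed the test of the difference were even in direction, with 19 higher and 19 lower in the high lines of A, B and C. The line that stood apart from its counterparts was D2 alone for 21, D1 alone for 14, both for 2 and neither for 1. As in the set of pair D alone, such calls follow in part from how the 38 were chosen. At 31 the founders were called with the sign of A, B and C, and at 0 against it. Of all tested probe sets 22.4% were called between H and L. Founders and reselected lines share alleles, so this is again a description and no independent evidence.

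At the genes in this paragraph D2 was the line apart, nearer to the high lines than to the other low lines. CG13064 and Pka-C3 are among the 6 named genes with the largest departures, and the others were chosen after their values were seen. CG13064 read 7187, 7224 and 7475 in D2 and 6915, 8419 and 9045 in D1, so the D lines overlapped. A2, B2 and C2 averaged 2442 to 2774 and L 2446, while A1, B1 and C1 averaged 7382 to 8405. D2 minus the mean of the other low lines was 1.499 (adjusted p = 3.55e-11), and the pair D difference of 0.15 ± 0.13 compared with 1.42, 1.72 and 1.58. The kinase gene Pka-C3, a catalytic subunit of protein kinase A, showed the reverse sign. D2 read 967.4, 750.2 and 802.6 and D1 919.8, 912.3 and 959, both at the level of A1, B1 and C1 (828.6 to 1002) and under A2, B2 and C2 (2030 to 2455). The exocyst gene Sec3, which serves vesicle tethering, read 2152.5, 2685.8 and 2490.3 in D2 and 2130.3, 2211.8 and 2952.5 in D1, against 5071 to 5521 in the other low lines. For hui, D2 read 14168, 12081 and 12746 and the other low lines averaged 5933 to 8551, while D1 read 15380, 15877 and 14835. The polarity kinase gene aPKC (0.66, 0.71 and 0.90 in A, B and C, -0.04 in D) and the ubiquitin ligase gene sina (0.52, 0.51 and 0.88, 0.09 in D) had the same pattern, with D2 minus the mean of the other low lines at 0.64 and 0.49.

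At the following genes, also chosen after their values were seen, D1 was the line apart. CG9662 read 8784, 12440 and 11964 in D1 and 11608, 13211 and 12574 in D2. The other high lines averaged 5436 to 5991 and the other low lines 12200 to 13300, and D1 minus the mean of the former was 0.93. CG3609 read 4715, 4483 and 4822 in D1 and 5065, 4955 and 4881 in D2, and A1, B1 and C1 averaged 7922 to 8815. It lies on 2L within 8 tested genes of mio and sau, which lacked a pair D difference in the same way. mio encodes a subunit of the GATOR2 complex, which acts on TOR signalling, and gave -0.58, -0.30 and -0.34 in A, B and C and 0.05 in D. sau, the fly GOLPH3 of the Golgi, gave 0.42, 0.44 and 0.46 and then 0.02. At all of these D1 had the level of the low lines.

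**Figure D3:**
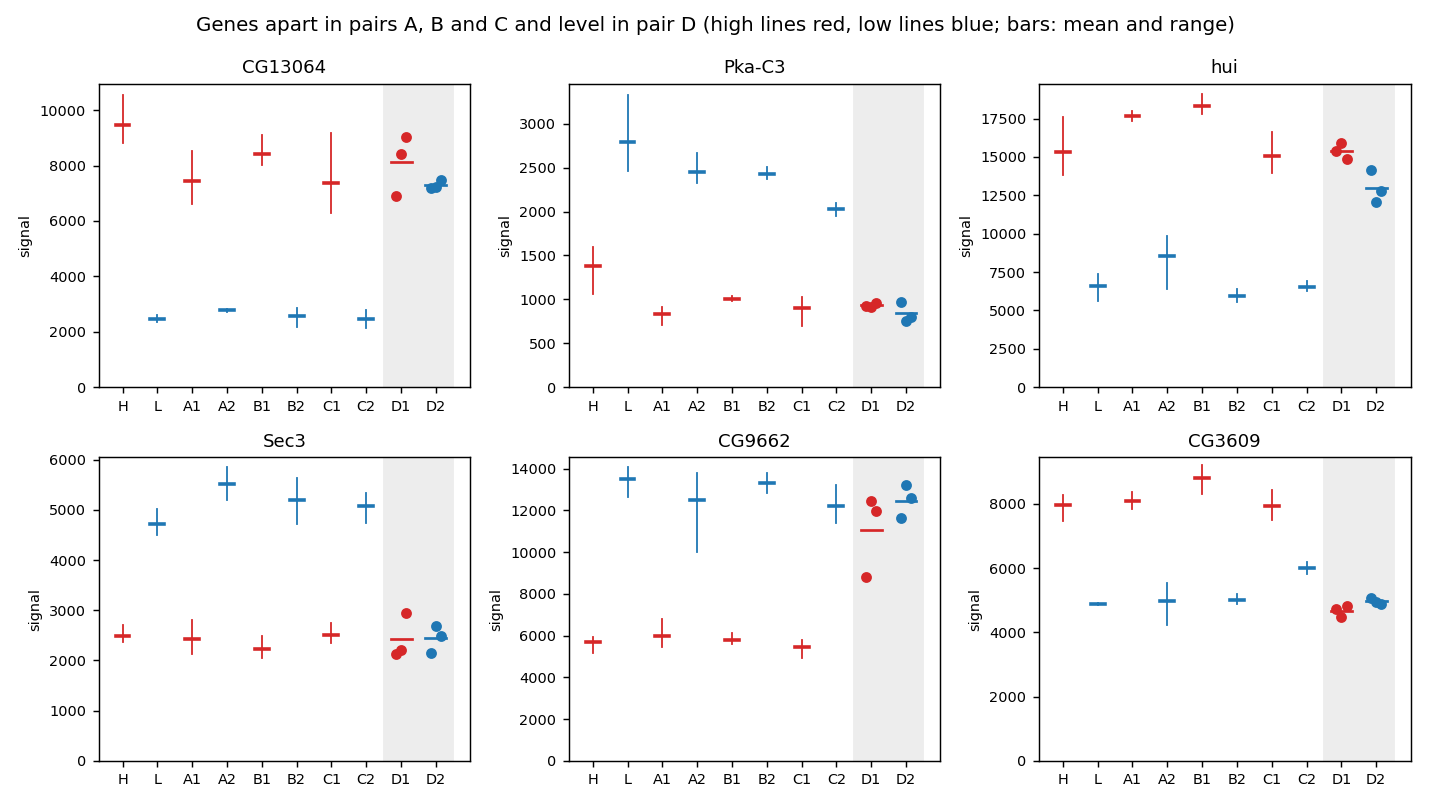
Signal (linear axis) of 6 genes that differed in pairs A, B and C but not in pair D, in the founders and the 8 reselected lines, drawn as in the plot of genes called in pair D alone. D2 lies nearer to the high lines than to the other low lines for CG13064, Pka-C3, hui and Sec3, and D1 lies with the low lines for CG9662 and CG3609.

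The 6 named genes with the largest departures also held 2 at which both D lines differed from their counterparts. At CG10344 pair D was called in the opposite direction, with 1078, 897.8 and 878.1 in D1 and 853.6, 453.6 and 504.8 in D2 (0.71 ± 0.23, adjusted p = 0.0495), against -1.80, -1.44 and -1.46 in A, B and C. D1 minus the mean of the other high lines was 1.06 and D2 minus the mean of the other low lines -1.21, and D2 replicate 1 lay near the D1 arrays. The exosome cofactor gene Rrp47 read 9474, 10516 and 11653 in D1 and 16350, 16694 and 15492 in D2 (-0.62 ± 0.13, adjusted p = 0.000733). Pairs A, B and C gave 0.86, 0.39 and 0.52. The remaining 2, CG13737 and CG13917, gave 0.31 and 0.19 in pair D, and D1 alone stood apart at both. The second probe set of CG13737 gave -0.80, -0.38 and -0.87 in A, B and C and 0.19 in D, and departed by 0.87 (adjusted p = 0.0221). That of CG13917 gave 0.05, 1.44 and -0.68 and then -0.09, so it did not show the pattern of the first, and its departure (-0.36, adjusted p = 0.824) was not called. The departure of CG13737 (1.20 ± 0.26) lost its call without D1 replicate 2 or D2 replicate 3, with a largest adjusted p of 0.0575.

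Among the 55 probe sets at which pair D opposed another pair, 33 were higher and 22 lower in D1. The opposite call was in pair A for 28, in B for 19 and in C for 19. D1 only stood apart for 24, D2 only for 14, both for 12 and neither for 5, which again follows in part from the choice. The founders were called with the sign of D at 33 and against it at 9. Over all tested probe sets, 22.4% were called between H and L. With alleles shared by founders and reselected lines, this too is a description and no independent evidence. CG14223 had the smallest adjusted p of the 6 opposing genes named by size, at 3372, 4031 and 3491 in D1 and 1865.5, 1608.5 and 1972.3 in D2 (1.00 ± 0.09, adjusted p = 1.57e-09). Pairs A and C were called the other way (-0.46 and -0.32). D2 minus the mean of the other low lines was -1.01, with those lines at 3516 to 3824 and L at 3081. The departure from the other pairs was 1.23 ± 0.11 (adjusted p = 2.91e-09).

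Several of the opposing genes were neighbours. On 2R, CG2811, Tina-1, Phk-3, emp and CG30428 opposed pair A within 12 tested genes, and with NKAIN and uzip, which also departed from the other pairs, 7 lay within 18. Tina-1 (0.40), Phk-3 (0.32) and emp, a CD36-family scavenger receptor gene (0.41), were higher in D1. For emp, D1 read 16965, 14069 and 14563 and D2 11438, 11796 and 10874. CG2811 (-0.45) and CG30428 (-0.44) were lower in D1. In pair A these 5 genes gave -0.21, -0.33, -0.29, 0.29 and 0.39 in the order in which they were just given, each with the sign turned. Neighbouring probe sets share a chromosome stretch, so they are not independent of each other.

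On 3R, CG6574, SelR, Fdh and Ugt302K1 opposed pair A within 10 tested genes. Ugt302K1 encodes a UDP-glycosyltransferase, SelR a methionine sulfoxide reductase and Fdh formaldehyde dehydrogenase. Ugt302K1 read 11036, 11279 and 9679 in D2, 999.7 and 827.2 on D1 replicates 2 and 3, and 8947 on D1 replicate 1. The latter array was therefore close to D2, L (11070) and the other high lines (10760 to 14630), and the other D1 arrays close to H (1385). SelR read 6625 on D1 replicate 1 and 3749 and 4191 on the other D1 arrays, against 7200 to 7579 in D2. Fancl, a ubiquitin ligase gene of the Fanconi anaemia pathway, read 1454.7 on that array, 623.5 and 846.8 on the other D1 arrays and 1503.3 to 1712.1 in D2. CG14683 likewise read 10443 there, 6137 and 7028 on the others and 10870 to 12495 in D2. CG6574 read 2322 on D1 replicate 1, between the other D1 arrays (3149 and 3080) and D2 (1381 to 1736).

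On a scale with D2 at 0 and the mean of D1 replicates 2 and 3 at 1, D1 replicate 1 lay at 0.0705 for Ugt302K1, 0.112 for Fancl, 0.166 for CG14683, 0.168 for SelR, 0.445 for Fdh and 0.58 for CG6574. Over the 16 genes of 3R in the sets described above it ran from there to 1.64 at Gos28, with 1.02 for Saf-B, 1.04 for CG5805 and 0.865 for TrpRS. In the cluster on 2R this array lay above the other D1 arrays for uzip and emp, and between them and D2 for CG2811 and CG30428. Leaving out D1 replicate 1 took the pair D difference of Ugt302K1 from -2.45 ± 0.44 to -3.55, and its departure from the other pairs from -3.13 to -4.23. Both were called either way. With only the 6 arrays of pair D the difference of Ugt302K1 was not called. The source of the mixed values on this array was not tested.

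**Figure D4:**
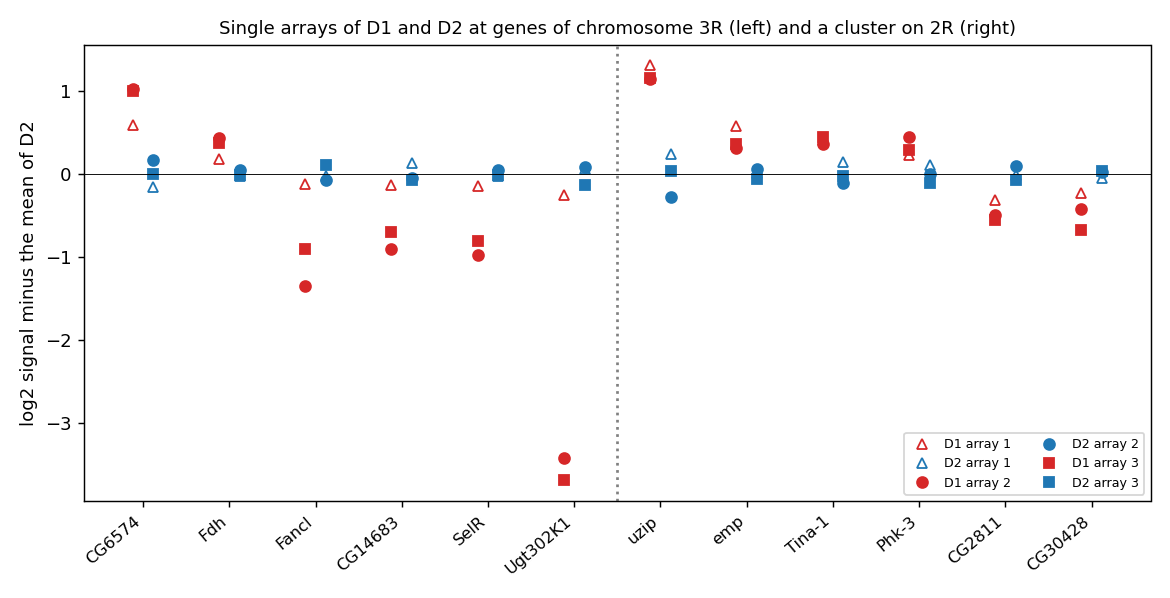
Log2 signal of each D1 and D2 array minus the mean of the D2 arrays for 6 genes of chromosome 3R (left of the dotted line) and 6 clustered genes of 2R (right). The open red triangle, D1 replicate 1, lies near D2 for Fancl, CG14683, SelR and Ugt302K1 and with the other D1 arrays for uzip, emp and Tina-1.

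Pair D calls were spread unevenly over the chromosome arms. The share of tested genes called was 14.8% on 2R (213 of 1435), 13.7% on 3L, 11.6% on 2L, 9.3% on 4, 8.32% on 3R and 6.36% on X (77 of 1211). The genes called in pair D alone counted 12 on 2R, 7 on 2L, 6 on 3R, 5 on X and 0 on 3L, although 1445 genes were tested on 3L. Those that A, B and C shared without D counted 11 on 3L, 10 on 2L, 5 on 2R, 2 on X and 1 on 3R. Neither order was tested.

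Against its 3 counterparts, D1 was called at 566 probe sets (6.03%), 324 higher and 242 lower, and D2 at 270 (2.88%), 118 higher and 152 lower. These directions depend on the scaling. With each array centred on its own median, the median difference over all tested probe sets was -0.12 for both lines, and 117 of 523 calls of D1 (22.4%, against 57.2%) and 40 of 244 of D2 (16.4%, against 43.7%) were higher. The counts also rest on single arrays. D1 had 260 calls without replicate 2 and 354 without replicate 3, and D2 had 94 without replicate 2 and 77 without replicate 3. The counts of D1 and D2 were not tested against each other.

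Genes that pattern the wing disc are given by pathway. Of 12 tested Hedgehog pathway genes 2 rose and 0 fell (16.7%), beside 10.5% of all 7222 genes called in either direction. The posterior selector gene en read 15606, 15381 and 15602 in D1 and 11045, 12186 and 11971 in D2 (0.41 ± 0.07, adjusted p = 0.000224), without overlap. Its departure from the other pairs was 0.31 ± 0.09 (adjusted p = 0.0401), with differences of -0.04, 0.30 and 0.02 in A, B and C. The Hedgehog signal transducer smo rose by 0.19 (SE 0.06), a call that was lost without any 1 of 4 arrays of the pair and without both that stood apart. ihog, a Hedgehog co-receptor, did not differ in D by the test (0.01), but departed from the other pairs by 0.30 (adjusted p = 0.0122), which gave -0.46, -0.14 and -0.25. Of 11 Notch pathway genes 1 rose (9.09%). This was Brd, a Bearded family inhibitor of Neuralized in Notch signalling, at 6748, 7380 and 8191 in D1 and 4182, 4037 and 3606 in D2 (0.91 ± 0.10, departure 0.48 ± 0.11, adjusted p = 0.0128). Pair A gave 0.87 for Brd and pairs B and C 0.27 and 0.17.

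Of 16 EGFR pathway and vein genes 1 rose (6.25%, under the 10.5% of all tested genes called). This was kni, which positions the second longitudinal vein. It read 6419, 6847 and 6593 in D1 and 4706, 4842 and 4862 in D2 (0.46 ± 0.10, adjusted p = 0.00237), and the arrays did not overlap. Pair C was called the other way (-0.42), and the departure of pair D was 0.52 ± 0.12 (adjusted p = 0.0103). D1 minus the mean of the other high lines was 0.46 for kni, which lost its D1 minus D2 call when each array was centred on its median. bs, the fly SRF that acts in intervein cells, gave -0.30 (not called) and a departure of -0.44 (adjusted p = 0.0389). The Dpp receptor gene tkv rose by 0.27 (1 of 13 Dpp pathway genes, 7.69%), and its call was also lost with that centring. The Wingless antagonist nkd fell by 0.39 (1 of 5, 20%). From the Fat and Hippo list, fj (0.67 ± 0.13) and ds (0.41 ± 0.07), which encode a Golgi kinase and the cadherin it modifies, rose among 14 (14.3%). For ds the D1 arrays lay at 26852 to 27347 and the D2 arrays at 20167 to 20627. For tkv, nkd, fj and ds the departure from the other pairs did not pass the test. Of 19 wing, hinge and notum selector genes 1 passed (5.26%), Doc2 (0.35), and its call was lost without D1 replicate 2 or D2 replicate 1.

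The glutathione S-transferases, which conjugate glutathione to toxic compounds, held the largest share of calls of any list with over 5 tested genes. Of 24 tested, 2 rose and 8 fell (41.7%, beside 10.5% of all tested genes called), with a median of -0.17. The list medians in A, B and C were -0.14, -0.08 and -0.29. Beside GstE11, GstT4 rose by 0.45. GstE6 read 309.2, 394 and 489.2 in D1 and 1616.2, 1519.1 and 1374.1 in D2, a difference of -1.94 ± 0.19 and a departure of -1.43 ± 0.22 (adjusted p = 4.62e-05). Pairs B and C gave -1.15 and -0.75 and pair A 0.38, and D1 minus the mean of the other high lines was -0.93. GstE12 fell by 0.41 and departed by -0.47, with 0.19 in pair A. The other members that fell were GstO3 (-1.90), GstE3 (-1.15 ± 0.21), GstT3 (-0.68), GstZ1 (-0.68), GstD3 (-0.55) and GstO1 (-0.50), for none of which the departure passed the test. The GstE genes are a cluster of similar copies on 2R, so cross-hybridisation between them was not tested. Of 26 P450 genes 2 rose, Cyp6g1 and Cyp310a1 (2.08 ± 0.38), and 1 fell (11.5% called). This was Cyp6a17, at 159.4, 22.3 and 17.3 in D1 and 100.4, 189.3 and 142.7 in D2, all under the filter level and overlapping. Cyp6a17 passed the filter only through other lines. The other low lines averaged 1258 to 1920, and pair D departed from the other pairs by 2.39 (adjusted p = 0.037), although its own value was -1.82. The sizes of both values rest on signals below the filter level, so the fall in D1 is uncertain.

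Hormone, growth and cuticle genes moved in both directions. Of 14 ecdysone response genes 2 rose and 2 fell (28.6%, beside 10.5% of all tested genes called). The nuclear receptor gene Hr3 fell by 1.90 (SE 0.40), from 1229.7, 2647.8 and 3181.2 in D2 to 531.6, 481.6 and 772.9 in D1, and the protease gene Sb, which acts in disc eversion, fell by 0.53. The ecdysone-inducible genes ImpE3 (0.39) and ImpE2 (0.26) rose, the first with its call lost without any 1 of 4 arrays of the pair. Without both arrays that stood apart only Hr3 of these 4 was called, and ImpE2 also lost its call when each array was centred on its median. Without these arrays Sb was at -0.41, ImpE3 at 0.42 and ImpE2 at 0.26. ImpL2, a secreted insulin antagonist, fell by 0.72 and the TOR target kinase S6k rose by 0.51. These were the only calls among 11 insulin and TOR genes (18.2%), and ImpL2 (-0.56) was not called without both arrays that stood apart. Of 22 cuticle and chitin genes 5 rose and 1 fell (27.3%), led by Cpr51A (1.09) and Cpr72Ea (1.07). Both calls ended without D1 replicate 1 (0.90 and 0.83) and without other single arrays, and without both arrays that stood apart 3 of the 6 genes were called. obst-A (0.29), a chitin-binding protein gene, was the list's member called in pair D alone. The chitin deacetylase gene serp fell by 0.93 (SE 0.12). Of 24 cell cycle genes 4 rose (16.7%), with Map205 (1.45 ± 0.15) and Mis12 (1.33 ± 0.16) first. The calls of Orc1 (0.52) and aurB (0.31) were lost without 4 and 15 single arrays, that of aurB also without both that stood apart. Except for obst-A, no gene named in this paragraph so far departed from the other pairs by the test. Of 41 cytosolic ribosomal protein genes in the list 16 were tested, and these lay together between 0.10 and 0.26 (median 0.15). Only RpL40 (0.26) passed (6.25%), and not without D1 replicate 2 or D2 replicate 2. The medians of that list in A, B and C were -0.19, -0.07 and 0.01, and RpS27A (departure 0.25) and RpLP1 (0.23) passed the test against the other pairs.

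**Figure D5:**
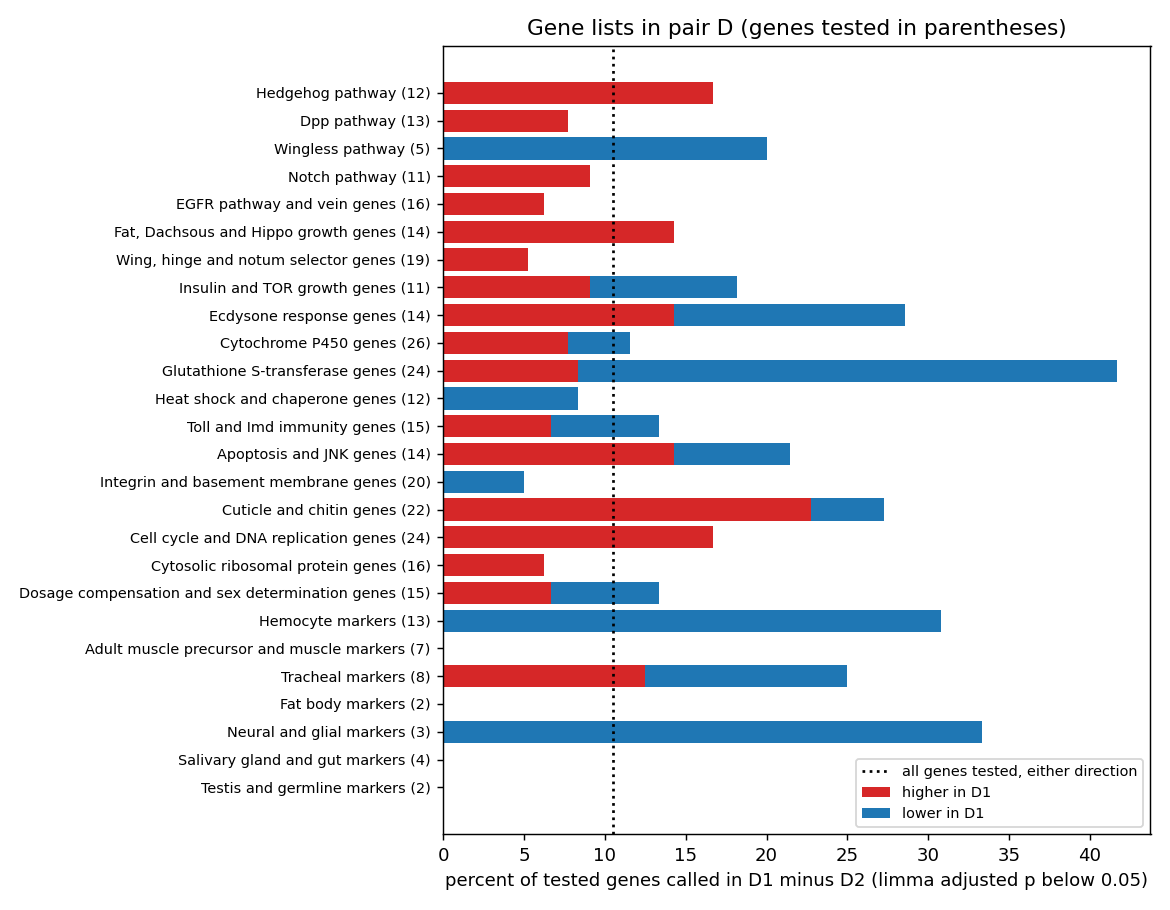
Percent of the tested genes of each list called higher (red) or lower (blue) in D1 than in D2; the dotted line is the 10.5% of all 7222 genes called in either direction. The glutathione S-transferase bar reaches 41.7%, 8 of its 10 calls being lower in D1.

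The chaperone gene Hsc70-5 fell by 0.45 (1 of 12 heat shock genes, 8.33%, beside 10.5% of all tested genes called). Of 15 immunity genes 13.3% were called. The antimicrobial peptide gene Def rose by 1.34 (SE 0.42) and the Toll pathway factor dl fell by 0.38. Both lost their calls without single arrays of pair D (4 and 2 arrays) and without both that stood apart. The TNF receptor gene grnd fell by 1.25 (SE 0.13), from 8733 to 9678 in D2 to 3589 to 4075 in D1. The JNK kinase hep (0.41) and the caspase Dronc (0.30) rose. Thus 3 of 14 apoptosis and JNK genes were called (21.4%). hep lost its call without D1 replicate 1 (adjusted p = 0.0514) or D2 replicate 1 (0.056) and Dronc without any 1 of 4 arrays, and without both that stood apart grnd alone was called. Further probe sets of hep gave 0.29 and 0.03 and one of dl 0.17. Of 20 integrin and basement membrane genes only the talin gene rhea was called (5%), and it fell by 0.67 (SE 0.08). Of 15 dosage compensation and sex determination genes 1 rose and 1, dsx, fell (13.3%). msl-3, of the dosage compensation complex, was higher in D1 by 2.14 (SE 0.18), and by 1.79 on a second probe set. That second probe set was also called in A, B and C, at 1.47, 1.33 and 1.15. The G protein regulator gene loco, expressed in glia, fell by 0.50. Except for dsx, no gene named in this paragraph departed from the other pairs by the test.

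Markers of other tissues that adhere to discs also differed. Blood cell (hemocyte) markers were mostly lower in D1, where the summed signal of 8 defining markers was 3277 to 5778 against 8471 to 9042 in D2, without overlap. In bulk discs, fewer cells of a type and less RNA per cell cannot be told apart. Of 13 hemocyte genes tested, 0 rose and 4 fell (30.8%, beside 10.5% of all tested genes called). Their median was -0.59 beside medians of -0.24, -0.38 and -0.88 in A, B and C. The scavenger receptor gene crq read 782.7, 612 and 902.4 in D1 and 2082.1, 2178.5 and 2203.6 in D2. Pxn (-1.07), He (-0.91) and PPO2 (-1.52) also fell. PPO1 (-1.94), eater (-1.42) and Hml (-0.59) were not called, and NimC1 gave 0.36. None of the 8 was at 0 in D1. PPO2, a prophenoloxidase of crystal cells, read 188.5 on D1 replicate 1 and 1166.6 and 1182.3 on the other D1 arrays, and without that array its difference was -0.64 and not called (adjusted p = 0.228), as were those of Pxn (-0.78, adjusted p = 0.0644) and He (-0.83, adjusted p = 0.0883), so of the 4 only crq was called without it. Without both arrays that stood apart crq was again the only one called. He and PPO2 also lost their calls without other single arrays of the pair. Tracheal Gasp was higher in D1, at 22607 to 32366 against 8979 to 13033 in D2 (1.33 ± 0.13). The tracheal markers btl and serp gave 0.83 (not called) and -0.93. For none of these hemocyte and tracheal genes did the departure from the other pairs pass the test, Gasp departing by 0.33 (adjusted p = 0.319). Summed markers of adult muscle precursors overlapped, at 10315 to 11600 in D1 and 11143 to 11897 in D2. The part of these tissues in the other results was not tested.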

How the data were processed

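RNA from 12 lines, 3 arrays each, was hybridised to Affymetrix arrays, 1 sample per array. The deposited values are array intensity values, not on a log scale, made by the authors with MAS5, per the submitters' processing notes. Its settings are not given in the sources used here, and the values showed a trimmed mean of 2500.1 on every array. Of 18952 probe sets, 183 controls were left out, and the 9385 at or above the median of the mean log2 signal (259.72) were tested. Of these, 7867 had 1 gene symbol in the platform annotation, 235 several and 1283 none. A linear model with 1 mean per line was fitted on log2 signals with limma 3.58.1 in R 4.3.3 (moderated variance with an intensity trend, two-sided tests, Benjamini-Hochberg adjustment over all tested probe sets) and tested on simulated data. The number of arrays limits the precision.

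Arrays were grouped by title. The pair, its sets of genes, the gene lists and the naming rule were chosen with earlier results of these data known. Named were, among probe sets with 1 symbol and no overlap between D1 and D2, the 8 highest and 8 lowest differences, the 12 highest and 12 lowest departures in pair D alone, the 6 largest opposing ones, and up to 4 called members of each list. The 6 largest departures of A, B and C without D were named with no condition on overlap. Genes outside this rule were added after their values were seen, list members and neighbours on a chromosome among them. Gene order came from a gene table of another assembly, used for neighbours only. In every pair the high line precedes the low line in the numbering of the titles, so an effect of that order cannot be told apart from direction. Alternatives were another filter, a pseudocount, centring, quantile normalization, no intensity trend, fewer arrays, each array left out, both arrays that stood apart left out (chosen after seeing the data), a replicate block and pairs as units.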

Additional observations from a re-analysis of the deposited data

Results flagged for a closer look

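At 5 of the 16 genes with the largest D1 minus D2 differences, 1 line mean stood far from the other 3 of its direction. The 4 high lines and the 4 low lines were tested as separate groups, with about 1 group in 20 flagged by chance. Each gene had both groups tested, so the count of genes cannot be set against that rate. The genes were chosen by D1 minus D2, so a flag of D1 or D2 follows in part from the choice. The share flagged over all probe sets was not computed. Line A1 averaged 2358 at GstE11, B1 averaged 1493 at CG32017 and 2288 at sut2, and A2 averaged 91.87 at CG12129. At Ugt302K1 both D1 (3591) and A2 (4499) stood below the rest of their direction. That D1 mean is the level of no single array, since the D1 arrays read 8947, 999.7 and 827.2.

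The D1 minus D2 difference departed from the mean of pairs A, B and C, by limma's test of that departure, at these named genes. Of the genes with the largest differences, Ir76a departed by 2.11, GstE11 by 2.44, Cyp6g1 by 2.95, CG8701 by 1.92, CG34227 by 2.54, CG1894 by -3.30, Rnf11 by -2.16 and Ugt302K1 by -3.13. Of the genes called in pair D alone, pippin departed by 1.62, CtsK2 by 1.61, uzip by 1.29, corolla by 1.27, Tsf1 by 1.16, CG31121 by 0.80, ics by 0.79, CG3589 by 0.47, CG3907 by 0.44, drosha by 0.43 and CG8860 by 0.38. Those below the other pairs were CG3253 at -1.73, dsx at -0.87, lncRNA:CR43242 at -0.87, dmGlut at -0.84, esc at -0.66, Gasz at -0.62, clt at -0.58, mTTF at -0.45, CG7006 at -0.37, Gos28 at -0.36, ND-B17 at -0.33 and pug at -0.32. Of the genes that A, B and C shared without D, CG10344 departed by 2.27, Pka-C3 by 1.504, CG13064 by -1.43, Rrp47 by -1.21, CG13737 by 1.20 and CG13917 by 1.18. Of the opposing genes, CG6574 departed by 1.31, Fancl by -1.24 and CG14223 by 1.23, and of list members en by 0.31, Brd by 0.48, kni by 0.52 and GstE6 by -1.43.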

How the results depend on the processing

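Leaving out any 1 of the 24 reselected arrays gave 708 to 997 calls between D1 and D2, 154 to 300 against the other pairs, 18 to 41 in pair D alone, 24 to 42 in A, B and C without D, 260 to 627 for D1 and 77 to 305 for D2 against their counterparts. The lowest counts came without D1 replicate 2 (pair D alone 18, D1 260), D2 replicate 2 (708) or D2 replicate 3 (154, 24 and 77). Against the other pairs there were 160 calls without D1 replicate 2 and 165 without D2 replicate 2. Centring each array on its median gave 529, 118, 15 and 20 for the first 4 of these counts, and 526 of the 943, 11 of the 37 and 20 of the 38 were among them. With no filter on low values, 24 were in pair D alone and 178 were called for D2. With only the 24 reselected arrays, 24 were in pair D alone. With pairs as units, 0 remained against the other pairs, 0 in pair D alone and 0 in A, B and C without D. In that limma fit 345 of 9385 had an unadjusted p below 0.05, less than the share of 0.05 that passes where no differences exist. The causes were not tested, except that the fits with fewer arrays or pairs have fewer samples. Same-numbered arrays did not deviate together (r 0.0326, 0.0455 and 0.0752 between the deviations), so the numbers were not used as pairs. With the replicate block 1003 were called between D1 and D2, 929 of them of the 943, 267 against the other pairs, 37 in pair D alone and 40 in A, B and C without D. Pair D alone also had 22 calls without D1 replicate 3, 20 without D2 replicate 2 and 22 without D2 replicate 3, D1 had 354 without its replicate 3 and D2 had 94 without its replicate 2. Of 3102 alternative values for 94 named gene results, 2716 kept their side of the threshold and their direction, 386 kept the direction only and 0 reversed. Signals under 259.72 are the least certain.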

Other observations

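Outside the comparisons above, CG5167 read 6915 on D1 replicate 1, 1535.4 and 1310.1 on the other D1 arrays and 1640.6 to 1950.3 in D2. This gene was chosen after its values were seen.

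Some probe sets without a gene symbol also departed from A, B and C. One of them differed in A, B and C by 4.04, 3.79 and 3.63 and in pair D by 0.17, with D2 at 3421 on average against 244.6 to 293.1 in the other low lines. Another read 1634 on average in D1 and 1343 in D2, while A2, B2 and C2 averaged 72.97 to 125.7. Those 3 low lines were under the filter level of 259.72, so the sizes of its A, B and C differences rest on low signals.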
